A study of Mus musculus with 6 samples.

Results

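The 34 genes described here belong to the p53 pathway and to the mitochondrial route of apoptosis. They are Trp53 and its feedback regulator, a set of textbook p53 targets, the BCL2 family, and the apoptosome with its caspases and their inhibitors. They form a hand-picked list of symbols, matched to the array through the transcript that each probe was designed for, and each gene was represented by its brightest probe. All 34 had a probe that was well above background on all 6 arrays, so all 34 were tested, among 29752 genes or unnamed transcripts in all. The arrays compared BV2 cells given 10 ng/ml recombinant mouse IL-4 for 24 hr (3 samples) with BV2 cells given PBS for the same time (3 samples). This follows the treatment labels, while the series' design text calls the controls untreated and a description label also mentions human blood. BV2 is an immortalised line of mouse microglia, the macrophages of the brain, made by transforming the cells with a retrovirus that carries the raf and myc oncogenes, so it divides without the signals a resting microglial cell needs. IL-4 is the cytokine used to bring macrophages into the alternative, or M2, state, and the study set out to profile RNA in that state.

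The protein p53 is a transcription factor that is kept scarce by MDM2, an E3 ubiquitin ligase, and that accumulates after DNA damage or oncogene activity. Its targets stop the cell cycle, adjust metabolism and repair, or promote death, and Mdm2 is itself a target, which closes a feedback loop. Death runs through the mitochondrion: BH3-only proteins neutralise the survival members of the BCL2 family or activate BAX and BAK, which then form pores in the outer membrane. The released cytochrome c assembles APAF1 and caspase 9 into the apoptosome. Much of the control of p53, BAX and the caspases acts on the proteins, which these arrays did not measure.

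Each signal below is log2 of the processed signal after dividing by the 75th percentile of that array. A difference is IL-4 minus PBS on that log2 scale with the SE of the limma fit, and calls were made where the p adjusted over all 29752 genes by the Benjamini-Hochberg method was under 0.05. Between 34655 and 38650 of 39429 probes were well above background per array, and the 75th percentile lay between 674 and 876. Slide 1 carried every IL-4 array together with 1 PBS array, replicate 1, and slide 2 carried the remaining pair of PBS arrays. Most results are therefore also given as the difference from PBS replicate 1 within slide 1. All 12 defining markers of microglia and macrophages were well above background on all 6 arrays, and so were 28 of 35 markers of other cell types, so this criterion alone did not set cell types apart. Marker sums took only markers measured on all 6 arrays, 6 of 7 for astrocytes and 5 of 6 for lymphocytes. They leave out the brightest marker of each of these lists, Aqp4 and Cd4. Log2 Aqp4 was 3.2, 3.7 and 4.1 with IL-4, and 3.8 and 3.3 on PBS replicates 1 and 2. Log2 Cd4 was 3.3, 3.1 and 3.0 with IL-4, and 2.3 and 1.0 on PBS replicates 1 and 3. In multiples of the 75th percentile, the microglial markers summed to 51.5 to 56.9 with IL-4 and 58.2 to 73.6 with PBS. Marker sums were higher with IL-4, without overlap, for lymphocytes (1.74 to 1.87 against 0.862 to 1.44), oligodendrocytes (3.54 to 3.97 against 1.99 to 3.40) and neurons (2.10 to 2.47 against 1.65 to 1.93), and overlapped for astrocytes, endothelial cells and fibroblasts. Their part in the results was not tested. In RNA from whole cultures, fewer cells of a kind and less RNA per cell cannot be told apart. Nothing in the labels tells separate cultures from repeats of one culture, so a p-value here reflects only the spread among these arrays, possibly technical, and 3 arrays per group limit the precision of every value.

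Of the 34 genes, 1 rose and 3 fell with IL-4. Bmf, which encodes a BH3-only activator of cell death, fell 2.37-fold and had the largest difference among them. The p53 targets Sesn1 and Zmat3 fell 1.48-fold and 1.44-fold, and the p53 target Gadd45a rose 1.59-fold. The other 30 genes did not pass. All 4 calls were lost when slide, which was unevenly shared between the groups, was fitted as a block (adjusted p = 0.0508 to 0.312). The 4 called genes were 11.8% of the 34, against 3.35% of all genes tested. By direction, 0.807% of all genes were called higher and 2.54% lower. The higher calls were 24.1% of all calls, a share that was 50.1% with another background correction, under which 3 of the 34 genes were called higher and 6 lower. The median difference was -0.16 over the 34 genes and -0.05 over all genes, and within slide 1 it was -0.0022 and 0.0055.

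**Figure D1:**
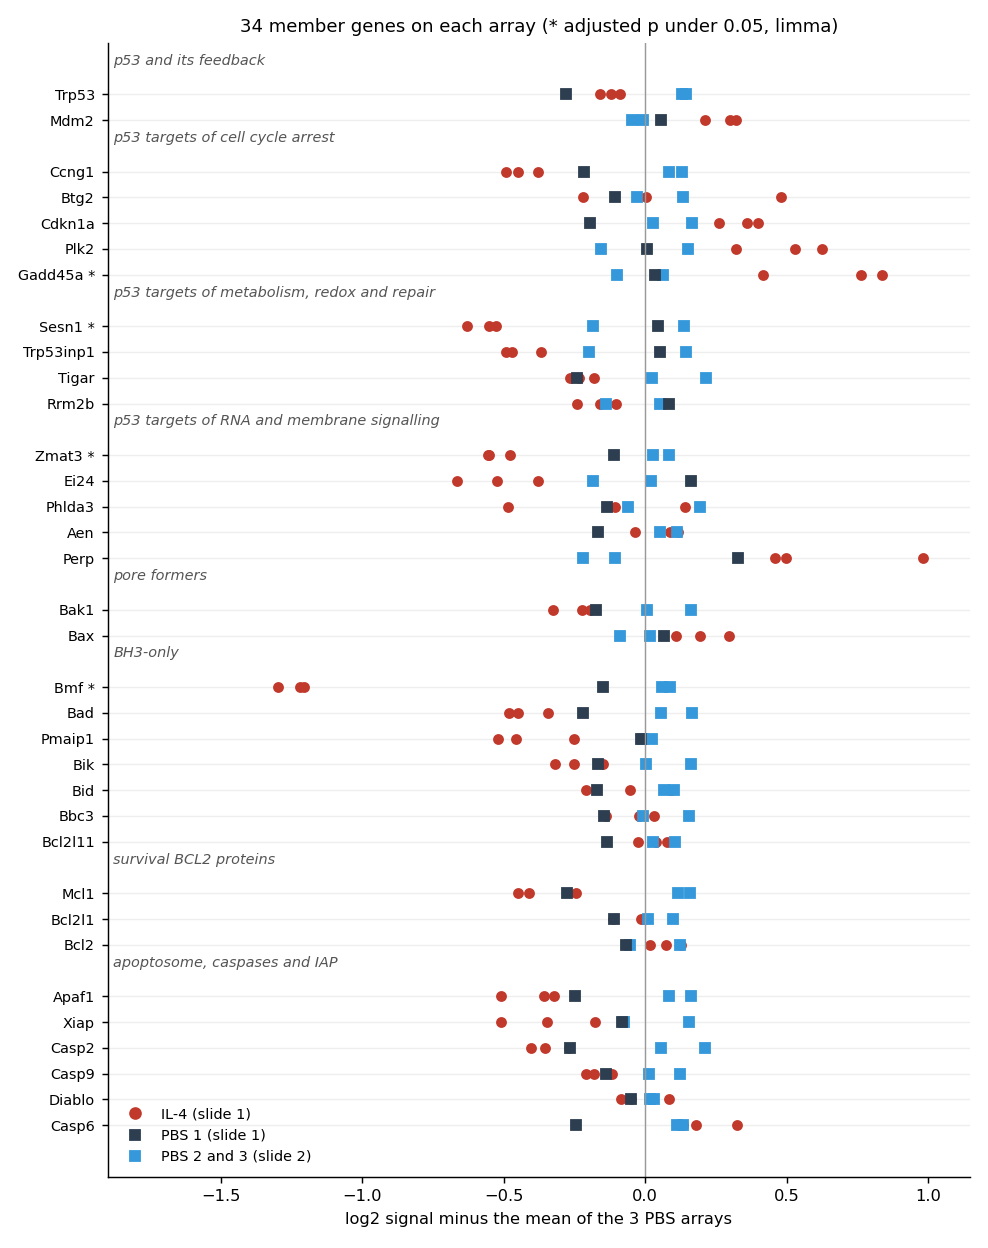
Log2 signal of each of the 34 genes on each array, minus the mean of the 3 PBS arrays of that gene, grouped by role. Circles are IL-4 arrays, the dark square is PBS replicate 1 on the same slide, light squares are PBS replicates 2 and 3, and an asterisk marks the 4 genes with an adjusted p under 0.05. The Bmf circles lie furthest from their PBS squares, and for genes such as Apaf1, Mcl1 and Casp2 the PBS replicate 1 square lies on the side of the IL-4 circles.

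The IL-4 and PBS values did not overlap for 19 of the 34 genes (55.9%), 7 of them higher with IL-4 and 12 lower. Of all genes tested, 38.5% did not overlap, 18.7% higher and 19.8% lower, so such separation was common on these arrays. PBS replicate 1 was lower than the mean of PBS replicates 2 and 3 for 25 of the 34 genes, and for 17772 of all 29752. PBS replicate 1 minus that mean had a median of -0.20 over all 34 genes and -0.08 over all 29752. The difference over all arrays was below 0 for 23 of the 34 genes, and for 16821 of all 29752. Within slide 1, 19 of these 23 genes were nearer 0, or above it. The spread within a group was smaller with IL-4 than with PBS for 23 genes, with a median SD of 0.077 and 0.152. The PBS arrays span both slides and the IL-4 arrays only slide 1, so treatment and slide cannot be told apart in this spread.

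The mRNA of p53 itself did not pass, and neither did Mdm2. The log2 signal of Trp53 was -2.25, -2.29 and -2.22 with IL-4 and -2.41, -2.00 and -1.98 with PBS. PBS replicate 1 was the lowest of the 6 and the other PBS arrays the highest, so the IL-4 values lay between PBS values. The difference was -0.12 ± 0.13, with a 95% interval of -0.43 to 0.19 (adjusted p = 0.534), and it was 0.16 within slide 1. Mdm2 gave 4.17, 4.06 and 4.15 with IL-4 and 3.90, 3.84 and 3.80 with PBS. Every IL-4 array was above every PBS array, yet the difference of 0.28 ± 0.10 did not pass (adjusted p = 0.0914). Within slide 1 it was 0.22.

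Among 5 p53 targets that act on the cell cycle, Gadd45a rose and the other 4 did not pass. Gadd45a encodes a small stress protein that binds PCNA and activates p38 signalling. Its log2 signal was 3.91, 3.56 and 3.98 with IL-4 and 3.18, 3.21 and 3.04 with PBS. All IL-4 arrays were above all PBS arrays, and IL-4 replicate 2 was the lowest of its group. Group means were 3.81 ± 0.23 with IL-4 and 3.14 ± 0.09 with PBS (SD, n = 3 each), a difference of 0.67 ± 0.13 (adjusted p = 0.0453). The difference from the PBS array of the same slide was 0.64, and with slide as a block the call was lost (adjusted p = 0.312).

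Cdkn1a encodes the cyclin-dependent kinase inhibitor p21, the classical effector of p53 arrest. Its signal was -0.53, -0.62 and -0.49 with IL-4 and -1.08, -0.86 and -0.72 with PBS. The groups did not overlap, and PBS replicate 1 was the lowest array. The difference of 0.34 ± 0.12 did not pass (adjusted p = 0.0974), and within slide 1 it was 0.53. A second, dimmer probe, for another Cdkn1a transcript, gave a difference of -0.13 ± 0.11. Plk2, a polo-like kinase gene, gave 4.19, 3.98 and 4.28 with IL-4 and 3.66, 3.81 and 3.50 with PBS. Every IL-4 array again lay above every PBS array, with a difference of 0.49 ± 0.13 (adjusted p = 0.0595) and the same size within slide 1, 0.49. Ccng1 encodes cyclin G1, which brings a phosphatase to MDM2. It gave -0.33, -0.29 and -0.22 with IL-4 and -0.06, 0.24 and 0.29 with PBS. Here every IL-4 array lay below every PBS array. Its difference of -0.44 ± 0.12 (adjusted p = 0.0639) was -0.22 within slide 1. For Btg2, an antiproliferative partner of the deadenylase complex, the groups overlapped and the difference was 0.09 ± 0.18 (adjusted p = 0.745).

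Of 4 targets in metabolism, redox control and repair, Sesn1 fell, and the differences of the others were also below 0. Sesn1 encodes sestrin 1, a stress protein that restrains the growth kinase mTORC1. Its signal was -2.87, -2.77 and -2.79 with IL-4 and -2.19, -2.42 and -2.10 with PBS. All IL-4 values were below all PBS values, and PBS replicate 2 was the lowest of its group. The means were -2.81 ± 0.05 with IL-4 and -2.24 ± 0.17 with PBS (SD, n = 3 each), and the difference was -0.57 ± 0.12 (adjusted p = 0.0462). Within slide 1 it was -0.62, and with slide as a block the call was lost (adjusted p = 0.236). Trp53inp1, whose product promotes p53 phosphorylation and autophagy, gave -1.88, -1.76 and -1.86 with IL-4 and -1.34, -1.25 and -1.59 with PBS. These groups did not overlap either, but the difference of -0.44 ± 0.12 did not pass (adjusted p = 0.0626). It was -0.50 within slide 1 for this probe, whereas a second, dimmer probe of the gene gave 0.36 ± 0.11 over all arrays, in the other direction. Tigar encodes a phosphatase that draws glucose carbon away from glycolysis, and its difference of -0.23 ± 0.13 became 0.01 within slide 1. Rrm2b, the p53-inducible subunit of ribonucleotide reductase, differed by -0.17 ± 0.11, and neither gene passed (adjusted p = 0.25 and 0.288).

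Zmat3 fell among 5 targets whose products act on RNA or at membranes. It encodes a zinc finger protein that binds RNA and acts on splicing and mRNA stability. Its signal was -1.87, -1.88 and -1.80 with IL-4 and -1.43, -1.24 and -1.29 with PBS. The IL-4 arrays lay within a narrow range below all PBS arrays, with PBS replicate 1 nearest to them. The means were -1.85 ± 0.04 with IL-4 and -1.32 ± 0.10 with PBS (SD, n = 3 each), and the difference was -0.53 ± 0.10 (adjusted p = 0.0417). Within slide 1 it was -0.42, and with slide as a block the call was lost (adjusted p = 0.257). Ei24, a gene for a membrane protein of the endoplasmic reticulum, gave -4.59, -4.30 and -4.45 with IL-4 and -3.76, -4.11 and -3.90 with PBS. The groups did not overlap, with a difference of -0.52 ± 0.13 (adjusted p = 0.0571) that was -0.69 within slide 1. Its probe was dim, with only 13.85% of all genes dimmer. With another background correction, normexp, the difference of Ei24 was -0.22 (adjusted p = 0.138). Perp, encoding a tetraspan membrane protein of desmosomes, gave -1.54, -1.06 and -1.58 with IL-4 and -1.71, -2.26 and -2.15 with PBS. PBS replicate 1 was the highest PBS array, and the difference of 0.65 ± 0.19 (adjusted p = 0.0699) was 0.32 within slide 1. Phlda3, an inhibitor of AKT, and Aen, a nuclease, overlapped between groups, with differences of -0.15 ± 0.17 and 0.06 ± 0.11 (adjusted p = 0.549 and 0.737).

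**Figure D2:**
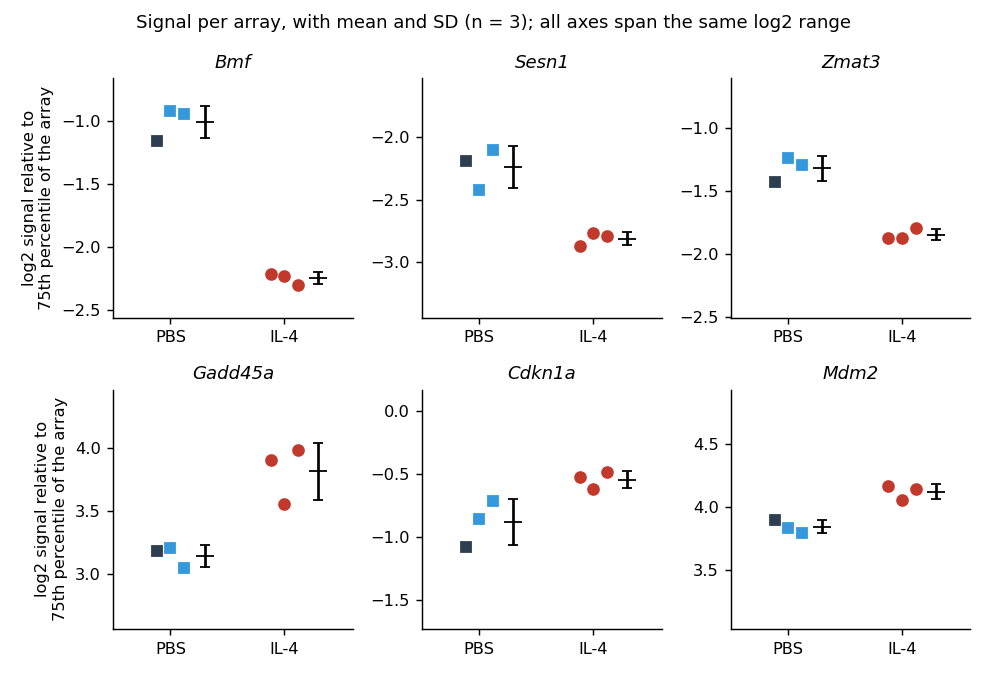
Log2 signal, scaled to the 75th percentile of each array, for 6 genes on each PBS array (squares, PBS replicate 1 dark and PBS replicates 2 and 3 light blue) and IL-4 array (red circles), with the mean and SD of each group (n = 3) as bars. All axes span the same log2 range, so the widest gap is seen for Bmf, at -1.24, while the gaps for Cdkn1a, at 0.34, and Mdm2, at 0.28, are narrow.

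RefSeq sequence in the build GRCm38.p6 was matched for 28 of the 34 genes, in 41 windows of 250 bases before an annotated start. The p53 decamer, the 10-base unit that p53 binds in pairs, was found in 10 of the 41 windows (24.4%), each of a different gene. It was found in 7.13% of all 32851 windows of that length. Its consensus is its own reverse complement, so 1 search covers both strands. Stretches of up to 30 bases around it are shown for the called genes that have one, Bmf, Sesn1 and Gadd45a, and for Cdkn1a, Mdm2 and Ccng1 as p53 targets that did not pass. Each is written 5′ to 3′ on the strand of the gene, with the decamer in capitals. Bmf had 3 windows, and Sesn1 and Cdkn1a 2 each, for different annotated starts. The decamer was in only 1 window of each, and the distance is from the start of that window. For Cdkn1a this is the upstream start, and the window of the other start, chr17:29093519-29093768, had no decamer.
Bmf (chr2:118544781-118544810, minus strand, first motif base 213 bases before the start): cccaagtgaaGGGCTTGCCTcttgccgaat
Sesn1 (chr10:41887256-41887285, plus strand, first motif base 173 bases before the start): cttggccttcAAGCTTGTTTttgctggcct
Gadd45a (chr6:67037428-67037457, minus strand, first motif base 40 bases before the start): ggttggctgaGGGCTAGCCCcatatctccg
Cdkn1a (chr17:29090896-29090925, plus strand, first motif base 73 bases before the start): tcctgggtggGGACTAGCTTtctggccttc
Cdkn1a (chr17:29090918-29090947, plus strand, first motif base 51 bases before the start): tggccttcagGAACATGTCTtgacatgttc
Mdm2 (chr10:117710925-117710954, minus strand, first motif base 186 bases before the start): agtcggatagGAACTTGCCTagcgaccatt
Ccng1 (chr11:40755452-40755481, minus strand, first motif base 185 bases before the start): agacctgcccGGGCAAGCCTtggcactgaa
The decamer was thus present before a start of genes that fell, rose or did not pass. Zmat3 had no entry. The other genes with the decamer were Trp53, Bax, Aen and Ei24. The motif TTCNNNNGAA, the spacing that STAT6 prefers, and the shorter TTCNNNGAA of other STAT factors were in 0 of the 41 windows, against 5.85% and 7.02% of all windows. The forkhead motif GTAAACA was in 7.32% of the 41 windows, of Bbc3, Bcl2l11 and Mdm2, and in 3.17% of all. The GC box GGGCGG was in 68.3% of the 41 windows and 32.7% of all, and the TATA motif TATAAA in 4.88% and 12.4%. All were searched on both strands, and none contains another. Matches, and their absence, describe the letters in these windows only.

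The 7 BH3-only genes included the largest difference of all 34. BMF is held at the actin cytoskeleton by a dynein light chain and released when a cell loses attachment or survival signals. Among the stretches printed, the decamer of Bmf lies farthest from the start of its own window. The signal of Bmf was -2.21, -2.23 and -2.30 with IL-4 and -1.16, -0.92 and -0.95 with PBS. The IL-4 arrays were nearly equal, and the highest of them was below the lowest PBS array, which was PBS replicate 1. The means were -2.25 ± 0.05 with IL-4 and -1.01 ± 0.13 with PBS (SD, n = 3 each), a difference of -1.24 ± 0.11, with a 95% interval of -1.49 to -0.99 (adjusted p = 0.011). Within slide 1 it was -1.09, with an interval of -1.35 to -0.84 from the fit with slide as a block, where it narrowly missed the threshold (adjusted p = 0.0508).

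Bcl2l11 encodes BIM, a close relative of BMF that is likewise tethered to a dynein light chain. It gave -1.55, -1.61 and -1.50 with IL-4 and -1.72, -1.55 and -1.48 with PBS, and the groups overlapped. Its difference was 0.03 ± 0.11, with a 95% interval of -0.22 to 0.27 (adjusted p = 0.858). The p53 targets Pmaip1 and Bbc3 encode NOXA, which binds chiefly MCL1, and PUMA, which binds every survival member. For Pmaip1 the signal was 1.30, 1.36 and 1.57 with IL-4 and 1.80, 1.85 and 1.81 with PBS. The groups did not overlap, the difference of -0.41 ± 0.11 did not pass (adjusted p = 0.0601), and within slide 1 it was -0.39. For Bbc3 the signal was 2.06, 1.89 and 2.01 with IL-4 and 1.89, 2.19 and 2.03 with PBS. These values overlapped, with a difference of -0.04 ± 0.12, an interval of -0.31 to 0.22 (adjusted p = 0.803) and 0.10 within slide 1.

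Bad, whose product is silenced by survival kinases, gave -0.44, -0.58 and -0.54 with IL-4 and -0.32, 0.07 and -0.04 with PBS. Its difference of -0.43 ± 0.13 did not pass (adjusted p = 0.0694) and was -0.20 within slide 1, while a second probe of the same transcript gave 0.26 ± 0.12, in the other direction. Bid, which links death receptors to mitochondria, and Bik, a BH3-only gene of the endoplasmic reticulum, overlapped between groups. Their differences were -0.06 ± 0.13 and -0.24 ± 0.12 (adjusted p = 0.763 and 0.187).

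None of the 3 survival genes passed. Bcl2 gave -1.39, -1.45 and -1.34 with IL-4 and -1.53, -1.34 and -1.52 with PBS, and the groups overlapped. The difference was 0.07 ± 0.10, with a 95% interval of -0.16 to 0.31 (adjusted p = 0.627). Bcl2l1, encoding BCL-XL, gave 4.85, 4.74 and 4.84 with IL-4 and 4.75, 4.95 and 4.87 with PBS, again overlapping, at -0.04 ± 0.10 with an interval of -0.28 to 0.19 (adjusted p = 0.78). For Mcl1, a survival protein with a short life, the signal was 4.10, 4.27 and 4.06 with IL-4 and 4.24, 4.67 and 4.63 with PBS. PBS replicate 1 lay among the IL-4 values and below the other PBS arrays, so the difference of -0.37 ± 0.14 (adjusted p = 0.115) was only -0.09 within slide 1. A second Mcl1 probe gave -0.02 ± 0.12.

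The genes for the pore-forming proteins BAX and BAK, Bax and Bak1, did not pass. Bax gave 4.33, 4.14 and 4.23 with IL-4 and 4.10, 4.05 and 3.95 with PBS, with no overlap. Its difference was 0.20 ± 0.10 (adjusted p = 0.205) and 0.13 within slide 1. Bak1 gave 2.75, 2.65 and 2.79 with IL-4 and 2.81, 3.14 and 2.99 with PBS. All IL-4 arrays were below all PBS arrays, PBS replicate 1 by little, and the difference of -0.25 ± 0.12 (adjusted p = 0.174) was -0.08 within slide 1.

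None of the 6 genes of the apoptosome, caspases and their inhibitors passed. Of the 6 differences, 5 were below 0, as were those of 16821 of all 29752 genes. The median of the 6 was -0.26 over all arrays and -0.05 within slide 1. Apaf1, the scaffold of the apoptosome, gave 0.39, 0.43 and 0.24 with IL-4 and 0.50, 0.83 and 0.91 with PBS. PBS replicate 1 lay between the IL-4 arrays and the other PBS arrays, and the difference of -0.40 ± 0.13 (adjusted p = 0.0876) was -0.15 within slide 1. Casp9, the initiator caspase of the apoptosome, gave 2.17, 2.08 and 2.11 with IL-4 and 2.15, 2.41 and 2.30 with PBS, and PBS replicate 1 lay among the IL-4 values. The difference was -0.17 ± 0.11 (adjusted p = 0.286). Casp2, an initiator caspase activated by PIDD1, gave 0.88, 0.80 and 0.75 with IL-4 and 0.88, 1.36 and 1.21 with PBS. Its PBS replicate 1 was almost level with the highest IL-4 array, and the difference of -0.34 ± 0.14 (adjusted p = 0.127) was -0.08 within slide 1.

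Casp6, an effector caspase, was the exception in direction at -0.37, -0.56 and -0.51 with IL-4 and -0.94, -0.56 and -0.58 with PBS. The groups did not overlap, but PBS replicates 2 and 3 lay level with the lowest IL-4 array, and PBS replicate 1 was clearly lower. The difference was 0.21 ± 0.13 (adjusted p = 0.276) and 0.46 within slide 1. Xiap, the inhibitor of initiator and effector caspases, gave 1.80, 2.13 and 1.96 with IL-4 and 2.22, 2.46 and 2.23 with PBS. The groups did not overlap, with -0.34 ± 0.13 (adjusted p = 0.104) over all arrays and -0.26 within slide 1. Diablo, whose product SMAC relieves that inhibition, overlapped between groups at -0.02 ± 0.10 (adjusted p = 0.914), and a second, dimmer probe gave 0.29 ± 0.10.

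When slide was fitted as a block, which makes the effect of IL-4 the same as the within-slide difference, none of the 34 genes was called by limma. Of all genes 0.0303% were called in that fit. In this fit IL-4 is set against a single PBS array, which is assumed to vary like the others, since the spread comes only from the IL-4 arrays and the slide 2 PBS pair. At an unadjusted p under 0.05 there were 10 of the 34 (29.4%), against 10.2% of all genes. They were Cdkn1a, Gadd45a, Plk2 and Casp6, higher with IL-4, and Sesn1, Trp53inp1, Zmat3, Ei24, Pmaip1 and Bmf, lower. Without the block, 17 of the 34 genes and 34.1% of all genes had an unadjusted p under 0.05. The 4 called genes had the same direction within slide 1. The sign turned within slide 1 for 6 genes that did not pass, Trp53, Tigar, Bbc3, Bid, Bcl2l1 and Diablo. It stayed the same for 28 of the 34 genes, and for 23003 of all 29752, so such turning was common on these arrays.

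**Figure D3:**
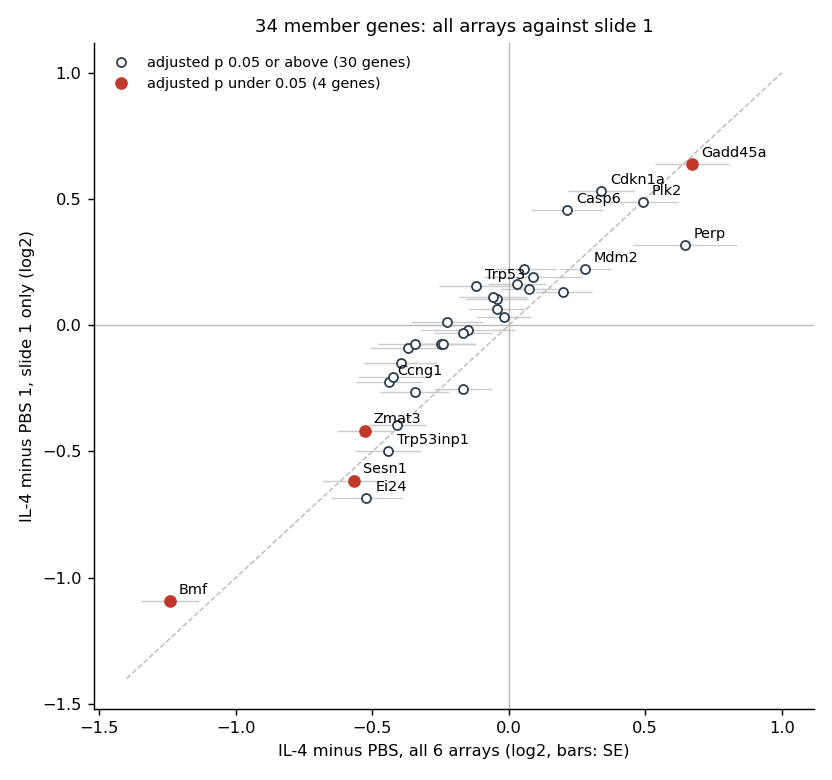
IL-4 minus PBS of each of the 34 genes over all 6 arrays (horizontal, log2, bars are the SE of the limma fit) against the same difference taken within slide 1 (vertical, log2). Filled points are the 4 called genes, and the dashed line marks equal values. The called genes lie near the line, Perp lies below it (0.65 against 0.32), and most genes with a small negative value lie above it.

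The 4 calls also depended on single arrays. Each was lost when any of 5 arrays was left out, that is every array but PBS replicate 1. In those 5 fits only 0 to 3 of all genes were called higher and 0 lower, so the loss was not particular to these 4. The adjusted p then lay between 0.0667 and 0.116 for Bmf, 0.14 and 0.162 for Sesn1, 0.145 and 0.181 for Zmat3, and 0.106 and 0.174 for Gadd45a. Over all 6 such fits the differences lay between -1.32 and -1.20 for Bmf, -0.66 and -0.50 for Sesn1, -0.58 and -0.49 for Zmat3, and 0.59 and 0.80 for Gadd45a. Without PBS replicate 1, which leaves no PBS array on slide 1, 4 of the 34 genes were called higher and 15 lower. In that fit 42.6% of all genes were called.

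**Figure D4:**
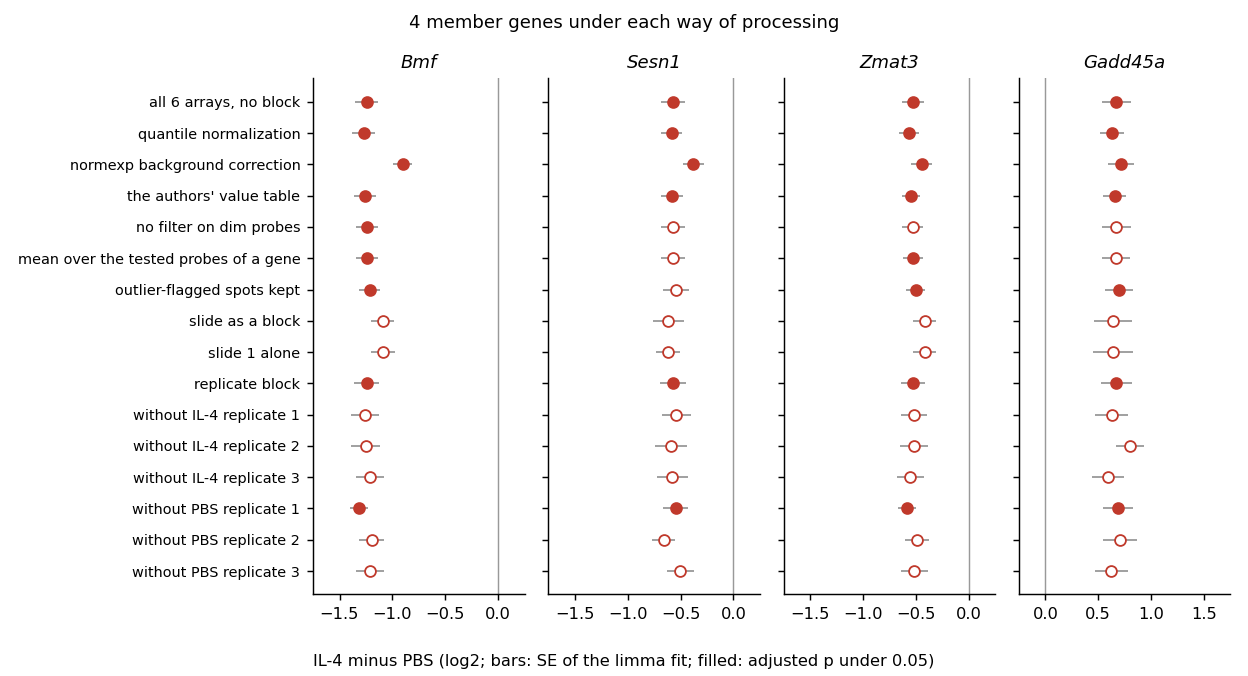
IL-4 minus PBS (log2, bars are the SE of the limma fit) of Bmf, Sesn1, Zmat3 and Gadd45a over all 6 arrays without a block (top row) and under 15 other ways of processing or selecting the arrays. Filled points had an adjusted p under 0.05. The values of Bmf lie between -1.32 and -0.90 and those of Gadd45a between 0.59 and 0.80, with 8 and 6 of the 15 points filled.

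Of 92 further genes of these pathways described here, 2 rose and 2 fell, which is 4.35% called and near the 3.35% of all genes. Among 20 regulators of p53, Atr, the kinase that senses stalled replication forks, fell, with a difference of -0.77 ± 0.12 (adjusted p = 0.029), and none rose. Within slide 1 its difference was -0.59. The damage kinase genes Atm, Chek1 and Chek2 differed by -0.32 ± 0.10, 0.65 ± 0.27 and -0.05 ± 0.10, and Mdm4, the partner of MDM2, by 0.00 ± 0.11 (adjusted p = 0.0718, 0.139, 0.759 and 0.992). Within slide 1 these differences were -0.26, 0.16, 0.02 and -0.05 in the same order. Chek1 was well above background on 5 of the 6 arrays. Among 33 other p53 targets, Tnfrsf10b, a death receptor gene, and Epha2, an ephrin receptor gene, rose by 1.39 ± 0.28 and 1.16 ± 0.22. Ccng2, a cyclin gene linked to arrest, fell, with a difference of -0.72 ± 0.13. The adjusted p-values were 0.0462, 0.0395 and 0.0381, and the differences within slide 1 were 0.73, 0.62 and -0.56 in the same order. With the normexp background correction the difference of Epha2 was 0.46. The other 30 did not pass. Among them Sesn2, a paralog of Sesn1, had a difference of 0.66 ± 0.23 (adjusted p = 0.0969), opposite in sign to Sesn1, and 0.17 within slide 1.

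None of 18 other BCL2 family members and mitochondrial channel genes passed. The survival gene Bcl2l2 differed by -0.17 ± 0.11 (adjusted p = 0.288) and Bcl2a1d by -0.05 ± 0.10 (adjusted p = 0.728), the latter having near-identical copies that may share its probe. None of 21 other caspases, inhibitors and effectors passed. Among them Cycs, the gene of cytochrome c, differed by 0.09 ± 0.10 (adjusted p = 0.519). With slide as a block none of the 4 further genes that changed was called (adjusted p = 0.167 to 0.337), and each also missed the threshold without any single array other than PBS replicate 1 (adjusted p = 0.114 to 0.194). In the fits without 1 such array, only 0 to 3 of all genes were called higher and 0 lower. The median difference over all 92 genes was -0.05, near that of all genes.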

How the data were processed

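Total RNA of 6 BV2 samples was labelled with Cy3 and hybridised to Agilent 1-colour mouse arrays, per the labels' protocols. The deposited scanner files give the intensity of each of 44397 spots, and per the file headers the extraction software was Agilent Feature Extraction 11.0.1.1. The authors' deposited value table holds log2 values with a median of 6.92 in every column, correlated at 0.999 or above with the scanner values. The sources used here do not give its normalization.

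Control spots and outlier-flagged spots (87 to 394 per array) were left out, copies of a probe were averaged, and log2 of the processed intensity was taken minus the 75th percentile of each array, with no pseudocount. Transcript accessions were matched to RefSeq symbols for 27234 of 39429 probes (69.1%). A probe was tested where all arrays of either group had it well above background, and the brightest was kept per gene. Groups came from the labels and slides from the headers. The fit was limma 3.58.1 (lmFit and eBayes, R 4.3.3) with no covariate and Benjamini-Hochberg adjustment, tested on simulated data. The simulated data held no slide effect, so they do not show how the fit behaves where slide is unevenly shared between groups. Alternatives changed the normalization, background correction, source of values, filter, probes per gene, flags, slide, replicate block and arrays. The normexp alternative (offset 50) used the median spot signal in place of the planned mean, which the columns do not include.

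All 34 genes are named whatever their values. Values per array are given for called genes, for genes whose groups do not overlap, and for Trp53, Cdkn1a, Mdm2, Bax, Bbc3, Bcl2, Bcl2l1, Mcl1, Bcl2l11, Apaf1 and Casp9. Of the further pathway lists, counts and called genes are named, with Atm, Chek1, Chek2, Mdm4, Sesn2, Bcl2l2, Bcl2a1d and Cycs added after their values were seen. Some genes of those lists are not reported here and are left out of their counts. The members and lists were chosen with earlier results of these data known.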

Additional observations from a re-analysis of the deposited data

How the results depend on the processing

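Over 15 alternatives, Bmf, Sesn1, Zmat3 and Gadd45a kept their direction in all 15 and were called in 8, 5, 7 and 6. Over all genes, with 240 called higher and 757 lower, the counts became 833 and 1804 under quantile normalization, 2032 and 2026 under normexp, 674 and 1625 in the authors' table, 5 and 10 with no filter on dim probes, 117 and 488 with the mean over probes, 127 and 549 with outlier-flagged spots kept, 6 and 3 with slide as a block, and 1 and 0 on slide 1 alone. Among the 34 genes, with 1 higher and 3 lower, they became 1 and 5, 3 and 6, 2 and 5, 0 and 1, 0 and 2, 1 and 2, 0 and 0, and 0 and 0 in the same order. Normexp brought Bmf to -0.90 and Sesn1 to -0.38, both still called. The cause of these differences was not tested.

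Leaving out 1 array gave 0 to 5812 genes higher and 0 to 6842 lower, and 0 to 4 and 0 to 15 among the 34, the highest counts without PBS replicate 1. The sign of uncalled genes turned in some of these fits: Aen lay between -0.026 and 0.11, Bbc3 between -0.12 and 0.033, Bcl2l1 between -0.098 and 0.0048, Bcl2l11 between -0.038 and 0.082, Bid between -0.14 and 0.019, Btg2 between -0.11 and 0.24, Diablo between -0.068 and 0.017, and Phlda3 between -0.30 and 0.017. Elsewhere it turned for Bcl2l11 (-0.011) and Diablo (0.0047) under quantile normalization, Aen (-0.0027) and Bid (0.058) under normexp, and Diablo in the authors' table (0.033), with the mean over probes (0.14) and with flagged spots kept (0.0087). With slide as a block, and on slide 1 alone, it turned for Trp53 (0.16), Tigar (0.013), Bbc3 (0.10), Bid (0.11), Bcl2l1 (0.066) and Diablo (0.032).

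Arrays with the same replicate number correlated in their deviations at 0.083, -0.0155 and 0.296, and not every array correlated best with its own number, so the numbers were not taken to pair the samples. A replicate block gave 1804 genes higher and 1966 lower, with 1 and 3 of the 34.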
